A study of Rattus norvegicus with 6 samples.

Results

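The insulin-like growth factor (IGF) system was followed in rat pituitary organ cultures through 10 genes: the ligands Igf1 and Igf2, the receptors Igf1r and Igf2r, and the binding proteins Igfbp1 to Igfbp6. Members were all probe sets (groups of short array probes that report 1 transcript) whose array annotation gave only 1 of these symbols, which made 23 of the 31042 probe sets in the table and 10 of the 14217 genes they name. All 10 genes were represented, Igfbp1, Igfbp2 and Igfbp4 by 1 probe set each and Igfbp5 by 5. The treated cultures were 3 organ cultures of rat pituitary given 10 nM GnRH (gonadotropin-releasing hormone, a peptide from the hypothalamus whose receptor is found on gonadotropes, the source of LH and FSH), and they were set against 3 cultures labelled control, with no word on what those received. A single array was run per sample. The sources used here do not give the strain, sex and age of the rats, the length of the treatment or whether a culture pooled several glands.

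IGF-1 and IGF-2 are small secreted proteins related to insulin. Both act through the tyrosine kinase receptor encoded by Igf1r, while the receptor encoded by Igf2r takes up IGF-2 and delivers it to lysosomes. Most IGF outside cells is held by binding proteins, which lengthen its life and can keep it from the receptor or release it when a protease cuts them. In the pituitary, IGF-1 is known as the signal that returns from growth hormone action and lowers growth hormone release by somatotropes, and it has also been described as a modulator of gonadotropes.

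None of the 23 probe sets passed the test across the whole table, and every member probe set with an unadjusted p under 0.05 belonged to Igfbp5, Igfbp3 or Igf1 and lay higher with GnRH. The test was limma, which fits each probe set and steadies its variance with that of all others, with Benjamini-Hochberg adjustment over 31042 probe sets and a threshold of 0.05. Over all probe sets, 0.464% passed it, and the adjusted p-values of the 23 ran from 0.0599 to 0.987. At an unadjusted p under 0.05, 8 member probe sets lay higher and 0 lower, where 6.6% of all probe sets lay higher and 5.66% lower. The 3 GnRH values exceeded all 3 control values in 9 of the 23 (background 7.06%), and lay below all controls in 0 (background 9.62%). The 9 were the 3 probe sets of Igf1, both of Igfbp3 and 4 of the 5 of Igfbp5, so they stand for only 3 genes. The median log2 fold change was 0.15 over the 23 and -0.025 over all probe sets.

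**Figure D1:**
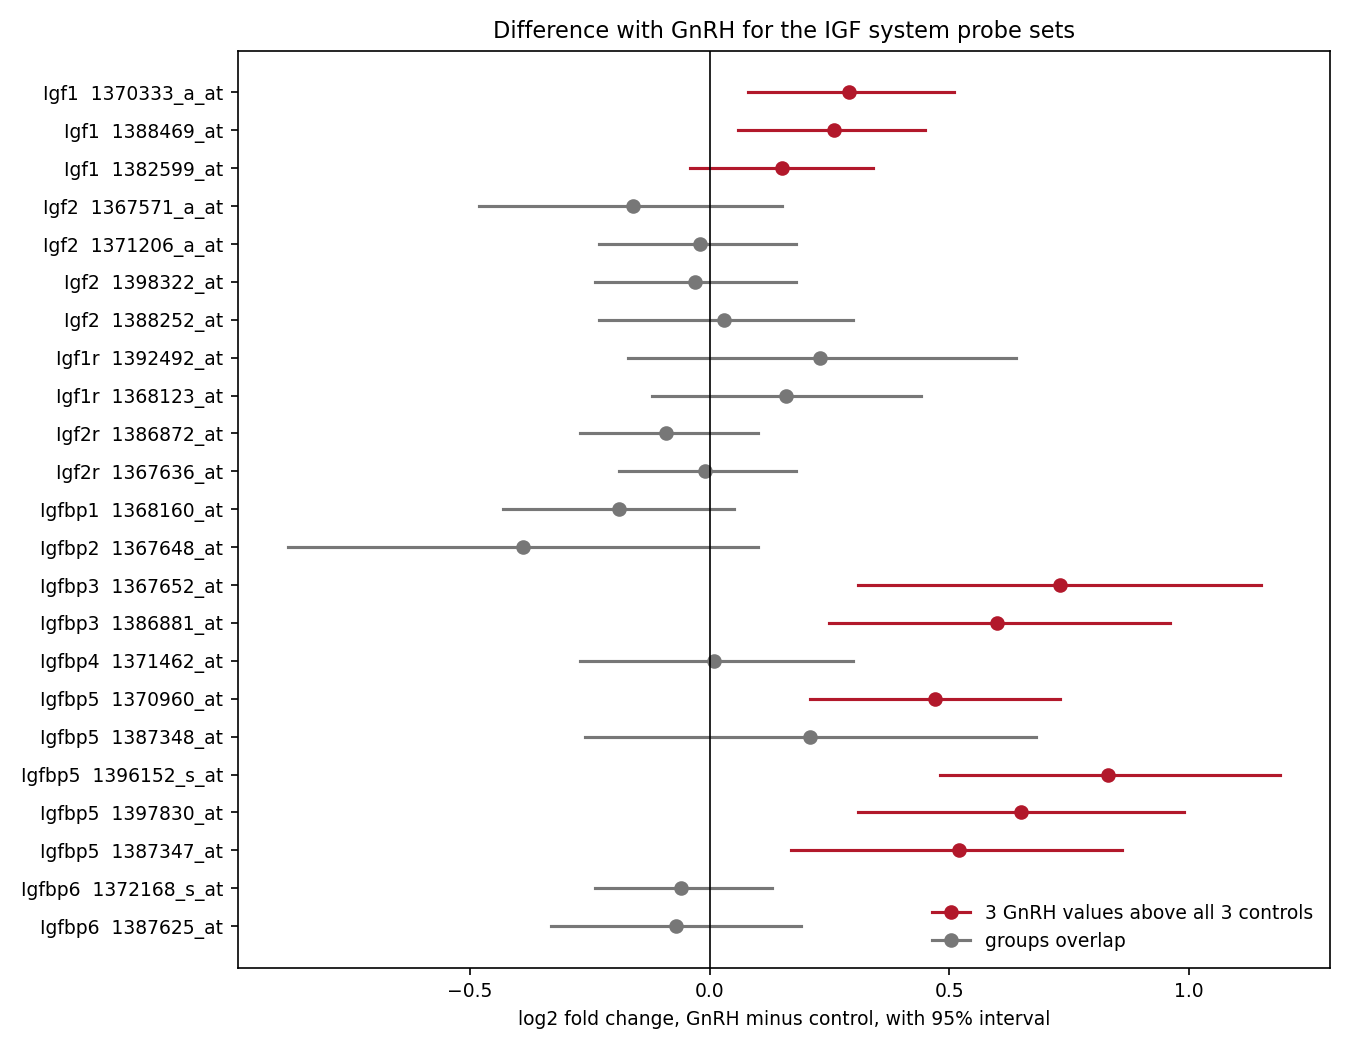
Log2 fold change (GnRH minus control, n = 3 arrays each) of the 23 IGF system probe sets on the horizontal axis, with the 95% interval of the limma fit as a line. Red marks probe sets whose 3 GnRH values lay above all 3 control values and grey those whose groups overlapped. The estimates reach 0.83 for Igfbp5, and the lowest is -0.39 for Igfbp2.

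The array of control replicate 3 was unlike those of controls 1 and 2, which touches several of these genes. Over all probe sets its log2 values correlated at 0.988 to 0.990 with the GnRH arrays and at 0.983 to 0.986 with controls 1 and 2, as a description across probe sets that share arrays. Xist, the RNA that silences an X chromosome in female cells, had log2 intensities of 9.73, 9.16 and 9.49 in GnRH arrays, against 3.91, 3.66 and 9.77 in controls 1, 2 and 3, on its probe set with the widest range. Without control 3, all GnRH arrays had high Xist and both remaining controls low Xist. In that fit, treatment cannot be told apart from whatever sets the Xist level. Results are therefore given with all arrays. There, too, controls 1 and 2 had low Xist and all GnRH arrays high Xist, so treatment and the Xist level are only partly separated, through control 3. For the 10 IGF genes, those whose call or sign changes are also given without control 3 or with control 3 as the only control. For other genes, only some such changes are given. Growth hormone (Gh1) had log2 intensities of 14.18, 14.09 and 14.17 in GnRH arrays and 14.25, 14.22 and 14.20 in controls, and prolactin (Prl) 14.19, 14.21 and 14.16 in GnRH arrays and 13.83, 13.88 and 14.15 in controls, so defining hormones of the anterior pituitary were bright in every sample. No label says whether the samples of a group came from separate animals, so p-values measure only the spread between these 6 samples. The Xist levels differ too far for control 3 to be a repeat of the RNA of controls 1 or 2. In a bulk sample, fewer cells of a type and less RNA per cell cannot be told apart.

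Igfbp5 encodes a binding protein that attaches to extracellular matrix, and it had the member probe set with the smallest p-value. On probe set 1396152_s_at its log2 intensities were 8.80, 9.38 and 9.17 in GnRH arrays, against 8.48, 8.37 and 7.99 in controls. Every GnRH value lay above every control, with control 3 lowest of all. The difference was 0.83 ± 0.16 (SE), or 1.78-fold, with a 95% interval from 0.48 to 1.19 on the log2 scale and a limma adjusted p of 0.0599. On 1397830_at, which was designed from the same source sequence, the values were 8.0, 8.53 and 8.30 in GnRH arrays and 7.83, 7.70 and 7.34 in controls, a difference of 0.65 ± 0.15 (limma adjusted p = 0.119). The brightest probe set, 1370960_at, had 10.74, 10.98 and 11.00 in GnRH arrays and 10.56, 10.53 and 10.22 in controls, a difference of 0.47 ± 0.12 (limma adjusted p = 0.134). On 1387347_at the values were 7.26, 7.83 and 7.25 in GnRH arrays and 7.05, 6.99 and 6.75 in controls, a difference of 0.52 ± 0.15 (limma adjusted p = 0.219). These 4 probe sets thus separated the groups, and GnRH 2 was the highest array on 3 of them.

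The fifth Igfbp5 probe set, 1387348_at, did not separate the groups. It had 8.98, 9.13 and 9.17 in GnRH arrays and 9.49, 8.72 and 8.46 in controls, so control 1 was above every GnRH array, and the difference of 0.21 ± 0.21 had an interval from -0.26 to 0.68 (limma adjusted p = 0.726). Control 3 was the lowest array on all 5 Igfbp5 probe sets. Without it the difference on 1396152_s_at was 0.69 ± 0.14, which passed the threshold (limma adjusted p = 0.0193), as did 1397830_at at 0.51 ± 0.13 (limma adjusted p = 0.0468). In that fit 4.95% of all probe sets passed as higher, and treatment and the Xist level divide the arrays alike. With control 3 as the only control, 1396152_s_at was 1.12 ± 0.19 higher with GnRH (limma adjusted p = 0.0372, the lone control assumed to vary like the other arrays), in a fit where 0.699% of all probe sets passed as higher. Every GnRH value of 1396152_s_at lay above every control, so the sign was fixed in advance in both fits. The mean of the 5 probe sets differed by 0.54 ± 0.15 (limma adjusted p = 0.167).

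Igfbp3 encodes the main carrier of IGF in blood, which joins IGF and the acid-labile subunit in a large complex. On 1367652_at its log2 intensities were 10.50, 10.55 and 10.60 in GnRH arrays, against 9.68, 10.35 and 9.44 in controls. The GnRH arrays lay close together (SD 0.05, n = 3), while the controls were spread (SD 0.47, n = 3), with control 2 near the GnRH level. The difference was 0.73 ± 0.19, or 1.66-fold, with an interval from 0.31 to 1.15 (limma adjusted p = 0.150). On 1386881_at the values were 9.97, 10.25 and 10.47 in GnRH arrays and 9.48, 9.96 and 9.44 in controls. The lowest GnRH array and control 2 nearly met there, and the difference was 0.60 ± 0.16 (limma adjusted p = 0.156). Control 2 decided the call on 1367652_at, where the difference without that array was 1.0 ± 0.11 (limma adjusted p = 0.0346), in a fit where 0.0902% of all probe sets passed as higher. In the same fit 1386881_at did not pass, at 0.77 ± 0.14 (limma adjusted p = 0.104). With control 3 as the only control the differences were 1.12 on 1367652_at and 0.79 on 1386881_at. Without control 3 they were 0.54 ± 0.16 and 0.51 ± 0.16 (limma adjusted p = 0.0647 and 0.0774).

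Igfbp5 and Igfbp3 each lie next to another binding protein gene, with no protein-coding gene between them in the GRCr8 gene table: Igfbp2 beside Igfbp5 on chromosome 9 and Igfbp1 beside Igfbp3 on chromosome 14. The 250 bases before the annotated start of these 4 genes are shown, from RefSeq on GRCr8, because the estimated differences within each pair had opposite signs. Each is written 5′ to 3′ on the strand of its gene, and capitals mark matches to the motifs searched.
Igfbp5, chr9:81914188-81914437, minus strand: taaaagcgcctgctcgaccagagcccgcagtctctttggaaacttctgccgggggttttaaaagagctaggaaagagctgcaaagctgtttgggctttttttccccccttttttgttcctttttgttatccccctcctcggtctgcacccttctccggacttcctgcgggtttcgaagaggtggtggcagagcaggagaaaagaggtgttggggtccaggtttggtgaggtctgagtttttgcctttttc
Igfbp3, chr14:86277945-86278194, minus strand: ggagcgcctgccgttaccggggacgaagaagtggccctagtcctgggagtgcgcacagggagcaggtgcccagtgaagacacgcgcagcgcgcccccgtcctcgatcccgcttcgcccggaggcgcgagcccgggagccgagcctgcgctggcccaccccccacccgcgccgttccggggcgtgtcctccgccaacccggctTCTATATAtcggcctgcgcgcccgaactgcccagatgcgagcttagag
Igfbp2, chr9:81864561-81864810, plus strand: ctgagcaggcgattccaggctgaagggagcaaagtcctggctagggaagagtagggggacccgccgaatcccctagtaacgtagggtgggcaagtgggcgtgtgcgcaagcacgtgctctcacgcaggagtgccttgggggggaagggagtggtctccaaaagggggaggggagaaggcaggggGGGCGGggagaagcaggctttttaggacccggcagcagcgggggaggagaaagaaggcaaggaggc
Igfbp1, chr14:86261027-86261276, plus strand: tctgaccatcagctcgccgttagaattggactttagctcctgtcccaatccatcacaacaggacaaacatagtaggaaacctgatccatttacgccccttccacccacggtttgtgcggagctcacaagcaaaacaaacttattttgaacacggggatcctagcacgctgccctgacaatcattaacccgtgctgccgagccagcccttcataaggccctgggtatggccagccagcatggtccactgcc
The motifs, searched on both strands, were TATANA for a TATA box, GGGCGG for a GC box, TGANTCA for an AP-1 site, TGACGTCA for a cAMP response element, GCGNGGGCG for an Egr site and AAGGTCA for the SF-1 motif. In these windows the TATA motif was matched in Igfbp3, by overlapping matches between 48 and 41 bases before the start, and the GC box in Igfbp2, from 66 to 61 bases before it. None of the other 4 motifs was matched, and Igfbp5 and Igfbp1 held no match at all. Of 33469 windows of the same length, 24.2% held the TATA motif, 30.5% the GC box, 6.34% the AP-1 site, 1.59% the cAMP response element, 4.29% the Egr site and 3.99% the SF-1 motif. The Igfbp3 window was 71.6% G or C, that of Igfbp2 64.0%, Igfbp1 52.8% and Igfbp5 51.6%, against a median of 51.2% over all windows.

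Igfbp2, a binding protein abundant in the fetus and the brain, had log2 intensities of 8.47, 8.60 and 7.56 in GnRH arrays, against 8.51, 8.64 and 8.65 in controls. Only GnRH 3 was low, and the other GnRH arrays lay at the control level. The difference of -0.39 ± 0.22 (interval -0.88 to 0.10, limma adjusted p = 0.507) shrank to -0.066 without GnRH 3. Igfbp1, a binding protein made mainly by liver and decidua, was dim, with 4.85, 4.95 and 4.79 in GnRH arrays and 5.27, 4.98 and 4.92 in controls, a difference of -0.19 ± 0.11 (limma adjusted p = 0.507).

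The other binding proteins showed smaller differences. Igfbp4, which mostly inhibits IGF action until it is cut, had 7.53, 7.57 and 7.38 in GnRH arrays, against 7.74, 7.50 and 7.21 in controls. The controls spanned the GnRH values on either side, and the difference was 0.01 ± 0.13 (interval -0.27 to 0.30, limma adjusted p = 0.977). It was -0.12 without control 3, the lowest array, and 0.28 ± 0.12 with control 3 as the only control (limma adjusted p = 0.426). Igfbp6, which prefers IGF-2 to IGF-1, had 6.12, 6.16 and 6.21 in GnRH arrays and 6.18, 6.29 and 6.18 in controls on 1372168_s_at, a difference of -0.06 ± 0.08. On its other probe set the values were 5.07, 5.40 and 5.12 in GnRH arrays and 5.40, 5.32 and 5.07 in controls, a difference of -0.07 ± 0.12. The groups overlapped on both, with limma adjusted p-values of 0.827 and 0.845 and intervals from -0.33 to 0.19 at the widest.

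**Figure D2:**
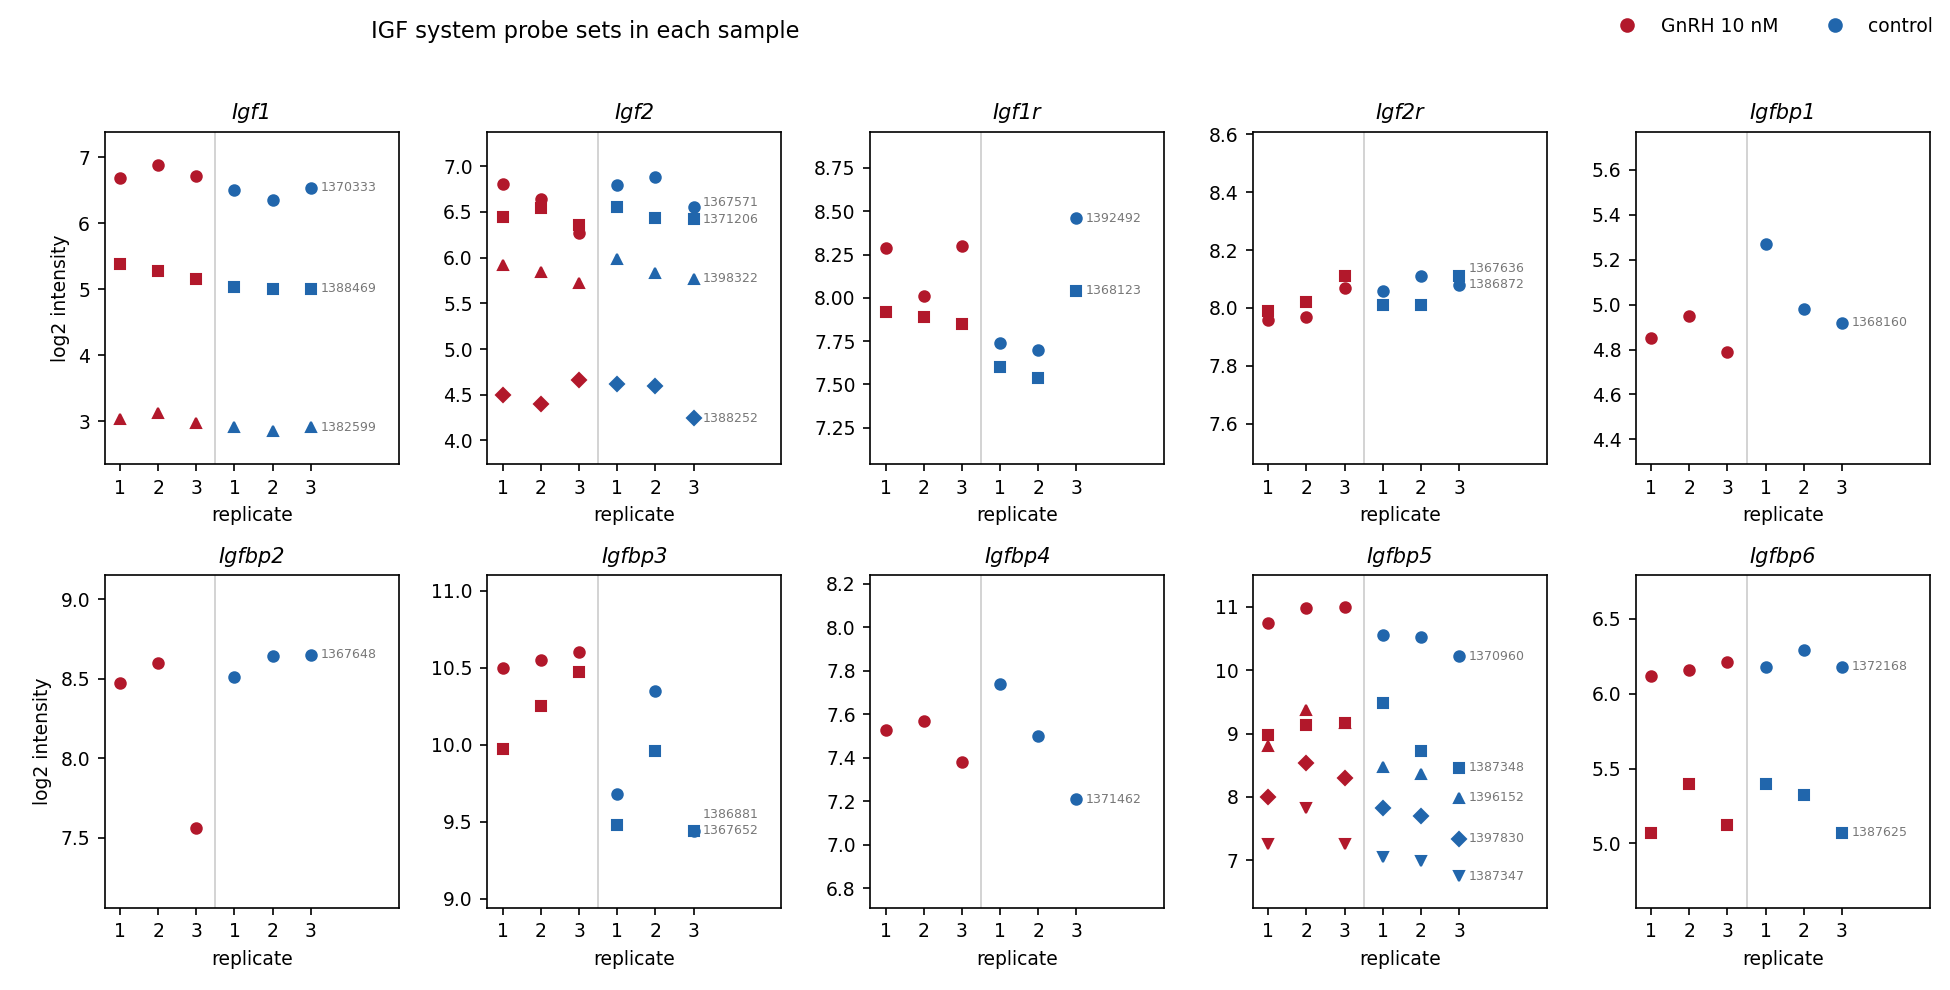
Log2 intensity of each IGF system probe set in each sample, 1 panel per gene, with GnRH 10 nM replicates 1 to 3 in red on the left and control replicates 1 to 3 in blue on the right; symbols and grey numbers (without suffix) mark the probe sets of a gene. The GnRH points of Igf1 and Igfbp3 sit above the control points of the same probe set, control 3 is the lowest Igfbp5 point on every probe set, and control 3 is the highest Igf1r point.

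Igf1, the ligand, lay slightly higher with GnRH on all of its probe sets. On 1370333_a_at it had log2 intensities of 6.68, 6.89 and 6.71 in GnRH arrays, against 6.50, 6.36 and 6.54 in controls. The difference was 0.29 ± 0.10, or 1.23-fold, with an interval from 0.08 to 0.51 (limma adjusted p = 0.265). On 1388469_at the values were 5.39, 5.27 and 5.16 in GnRH arrays and 5.04, 5.00 and 5.01 in controls, a difference of 0.26 ± 0.09 (limma adjusted p = 0.296). The third, 1382599_at, lay among the dimmest 1.6% of the table, with 3.04, 3.12 and 2.97 in GnRH arrays and 2.92, 2.85 and 2.91 in controls. The groups did not overlap on any of the 3, and control 3 lay close to the other controls on each. Over the fits that left out 1 array, the difference on 1370333_a_at stayed between 0.23 and 0.34 and passed the threshold in 0 of 6.

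Igf2, the other ligand, gave 4 probe sets whose groups all overlapped. Of these, 3 were designed from the same source sequence. The brightest, 1367571_a_at, had 6.81, 6.64 and 6.27 in GnRH arrays, against 6.79, 6.88 and 6.55 in controls, a difference of -0.16 ± 0.14 (limma adjusted p = 0.674). On 1371206_a_at, the next in brightness, the values were 6.44, 6.54 and 6.36 in GnRH arrays and 6.56, 6.43 and 6.42 in controls. The differences on it and the other 2 were -0.02, -0.03 and 0.03, with intervals from -0.24 to 0.30 at the widest. The limma adjusted p-values of these 3 ran from 0.915 to 0.938. On the dimmest, 1388252_at, the difference was -0.09 without control 3 and 0.28 ± 0.13 with control 3 as the only control (limma adjusted p = 0.480).

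The receptors split the arrays in another way. Igf1r had log2 intensities of 8.29, 8.01 and 8.30 in GnRH arrays, against 7.74, 7.70 and 8.46 in controls, on 1392492_at. On 1368123_at it had 7.92, 7.89 and 7.85 in GnRH arrays, against 7.60, 7.54 and 8.04 in controls. On both, GnRH arrays lay above controls 1 and 2 and below control 3, where Xist, too, set controls 1 and 2 apart from the other arrays. With all arrays the differences were 0.23 ± 0.18 and 0.16 ± 0.13 (limma adjusted p = 0.642 and 0.647). Without control 3 they passed the threshold at 0.48 ± 0.10 and 0.32 ± 0.08 (limma adjusted p = 0.0230 and 0.0466), whereas with control 3 as the only control they had the opposite sign, at -0.26 ± 0.14 and -0.16 ± 0.11 (limma adjusted p = 0.554 and 0.684). The part of whatever sets the Xist levels in this result was not tested. Igf2r, which clears IGF-2, had 7.96, 7.97 and 8.07 in GnRH arrays and 8.06, 8.11 and 8.08 in controls on 1386872_at, a difference of -0.09 ± 0.08. On 1367636_at it had 7.99, 8.02 and 8.11 in GnRH arrays and 8.01, 8.01 and 8.11 in controls, a difference of -0.01 ± 0.09. The arrays of both groups lay within a narrow span, and the intervals for Igf2r ran from -0.27 to 0.18 (limma adjusted p = 0.701 and 0.987).

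**Figure D3:**
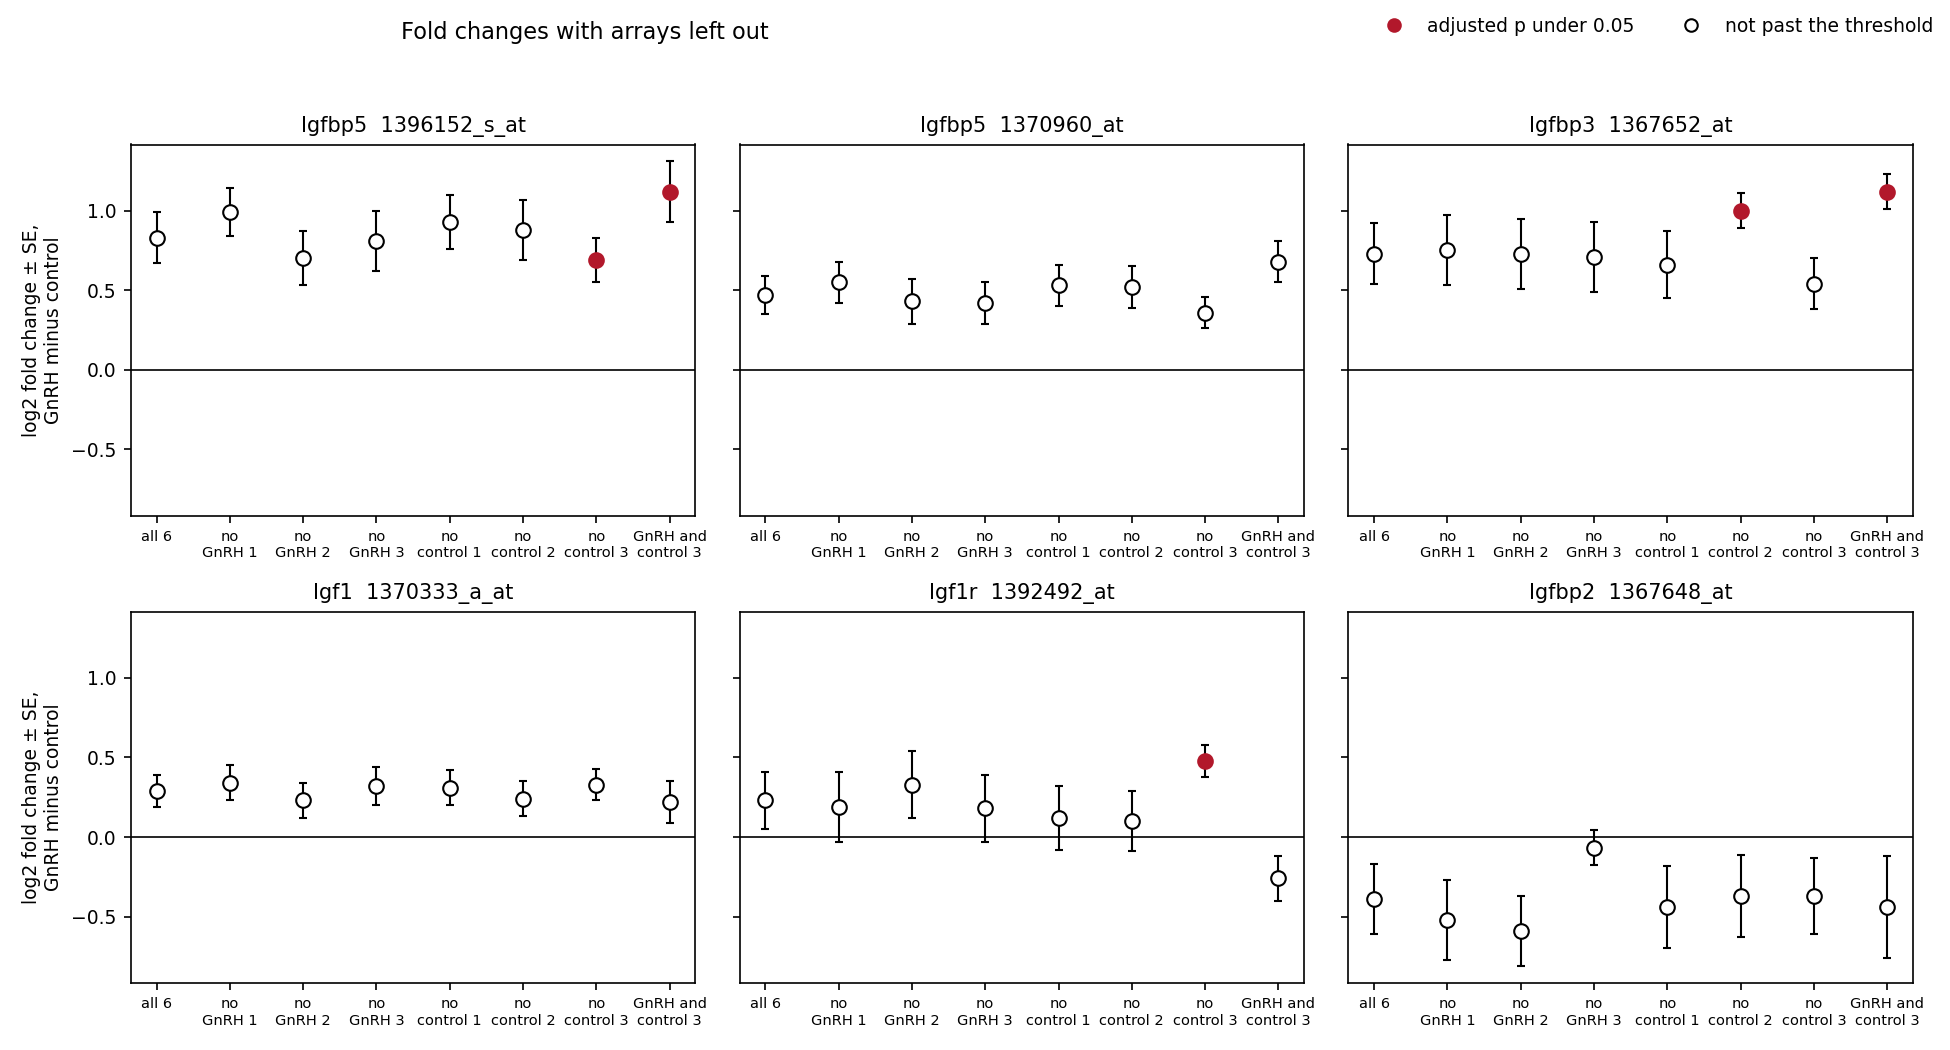
Log2 fold change (GnRH minus control) ± SE of 6 member probe sets on the vertical axis, fitted with all 6 arrays, without each array in turn, and with GnRH arrays against control 3 alone; red points passed an adjusted p of 0.05. Igfbp5 and Igfbp3 stay above 0 in each of these fits, as they must where every GnRH value lies above every control. Igf1r turns to -0.26 against control 3 alone, while Igfbp2 is near 0 without GnRH 3.

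Across the fits that left out 1 array, the count of member probe sets past the threshold was 4 of 23 without control 3 (2 of Igfbp5 and 2 of Igf1r), 1 without control 2 (Igfbp3) and 0 without any of the other arrays. All 4 lay higher with GnRH, the direction in which 4.95% of all probe sets passed in that fit. With control 3 as the only control, 2 passed, 1 each of Igfbp5 and Igfbp3. That fit and the fit without control 3 share the GnRH arrays, so they are not separate tests of Igfbp5. With weights for array quality, under which control 3 counted least (0.298), 6 members passed as higher, 3 of Igfbp5, 2 of Igf1 and 1 of Igf1r, where 5.68% of all probe sets did. Controls 1 and 2, both with low Xist, had weights of 0.749 and 2.72, so treatment and the Xist level were only weakly separated in that fit.

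Genes around the IGF system were counted in 4 further lists, of which 52 of 57 genes were on the array, with 88 probe sets. Of these, 2 rose and 0 fell, against 0.422% of all probe sets that rose and 0.0419% that fell. Their median log2 fold change was -0.015, with -0.025 over all probe sets. Both that rose encode steps of the kinase cascade below the receptor. Pik3r2, a regulatory subunit of phosphoinositide 3-kinase, had log2 intensities of 6.67, 6.84 and 6.63 in GnRH arrays, against 6.24, 5.93 and 5.90 in controls, a rise of 0.69 ± 0.11 or 1.62-fold (limma adjusted p = 0.0314). Akt1, the kinase activated through it, had 7.09, 7.04 and 6.89 in GnRH arrays, against 6.34, 6.53 and 6.08 in controls, a rise of 0.69 ± 0.12 or 1.61-fold (limma adjusted p = 0.0411). No array of one group reached into the other on either.

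Other probe sets of both genes differed less. Another Akt1 probe set differed by 0.47 (limma adjusted p = 0.0640) and the remaining one by -0.14 (limma adjusted p = 0.547), while the other Pik3r2 probe set differed by 0.20 (limma adjusted p = 0.425). With the mean of all probe sets neither gene passed, at 0.34 for Akt1 and 0.45 for Pik3r2 (limma adjusted p = 0.143 and 0.0659). Over the fits without 1 array the rise stayed between 0.57 and 0.80 for Akt1 and between 0.63 and 0.80 for Pik3r2, though most of the calls were lost. Akt1 passed only without control 3 (limma adjusted p = 0.00822) and missed the threshold at 0.0569 to 0.203 otherwise. Pik3r2 passed without control 1 (limma adjusted p = 0.0300) or control 3 (0.00920) and missed it at 0.0693 to 0.182 otherwise. Without control 3, 5 of the 88 probe sets of the 4 lists passed as higher and 5 as lower, where 4.95% and 2.49% of all probe sets did. All 50 probe sets of the receptor and signalling list, from the insulin receptor to mTOR and FoxO factors, had a median of 0.008, and 48 did not pass.

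Among genes that act on IGF outside the cell, 0 of 12 probe sets passed with limma, and their median was -0.11. At an unadjusted p under 0.05, 1 lay higher and 3 lower, where 6.6% and 5.66% of all probe sets did. Pappa2, a protease that cuts Igfbp3 and Igfbp5, had log2 intensities of 6.70, 6.21 and 6.59 in GnRH arrays, against 7.12, 7.05 and 6.91 in controls, a difference of -0.52 ± 0.13 (limma adjusted p = 0.131). Stc1, a stanniocalcin, a family known to inhibit the related protease Pappa, had 8.09, 8.04 and 8.14 in GnRH arrays and 8.38, 8.69 and 8.31 in controls, a difference of -0.37 ± 0.11 (limma adjusted p = 0.214). On these probe sets every GnRH array lay below every control, as on 9.62% of all probe sets. Without control 3 both passed as lower, at -0.58 ± 0.13 for Pappa2 and -0.44 ± 0.10 for Stc1 (limma adjusted p = 0.0257 and 0.0308). In that fit 2.49% of all probe sets passed as lower. Their other probe sets differed less, at -0.18 for Pappa2 and at 0.04 and -0.16 for Stc1. Igfbp7, a relative of the binding proteins with low affinity for IGF, had 8.54, 8.82 and 7.89 in GnRH arrays and 7.96, 8.0 and 7.69 in controls, a difference of 0.54 ± 0.20 (limma adjusted p = 0.314), with GnRH 3 inside the control range.

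In the growth hormone axis, 0 of 17 probe sets passed with limma. At an unadjusted p under 0.05, 3 lay higher and 0 lower, where 6.6% and 5.66% of all probe sets did. Pou1f1, the transcription factor of somatotropes, lactotropes and thyrotropes, had 8.0, 8.20 and 8.21 in GnRH arrays, against 7.35, 7.39 and 7.91 in controls, a difference of 0.58 ± 0.14 (limma adjusted p = 0.132), with control 3 nearest to the GnRH arrays. Without control 3 it passed as higher at 0.76 ± 0.10, as did its other probe set at 0.39 ± 0.10 (limma adjusted p = 0.00179 and 0.0466). Stat5b, which carries the growth hormone signal to the nucleus, differed by 0.26 (limma adjusted p = 0.266) and the somatostatin receptor Sstr2 by -0.33 (limma adjusted p = 0.407). Of 9 probe sets for RNA-binding partners of Igf2 mRNA and for imprinted genes, 0 passed (limma; 0 at an unadjusted p under 0.05 in either direction). The 3 genes with the smallest p-values were H19, the imprinted RNA gene near Igf2, at -0.16, Igf2bp2 at -0.16 and Igf2bp1 at -0.14 (limma adjusted p from 0.551 to 0.596).

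**Figure D4:**
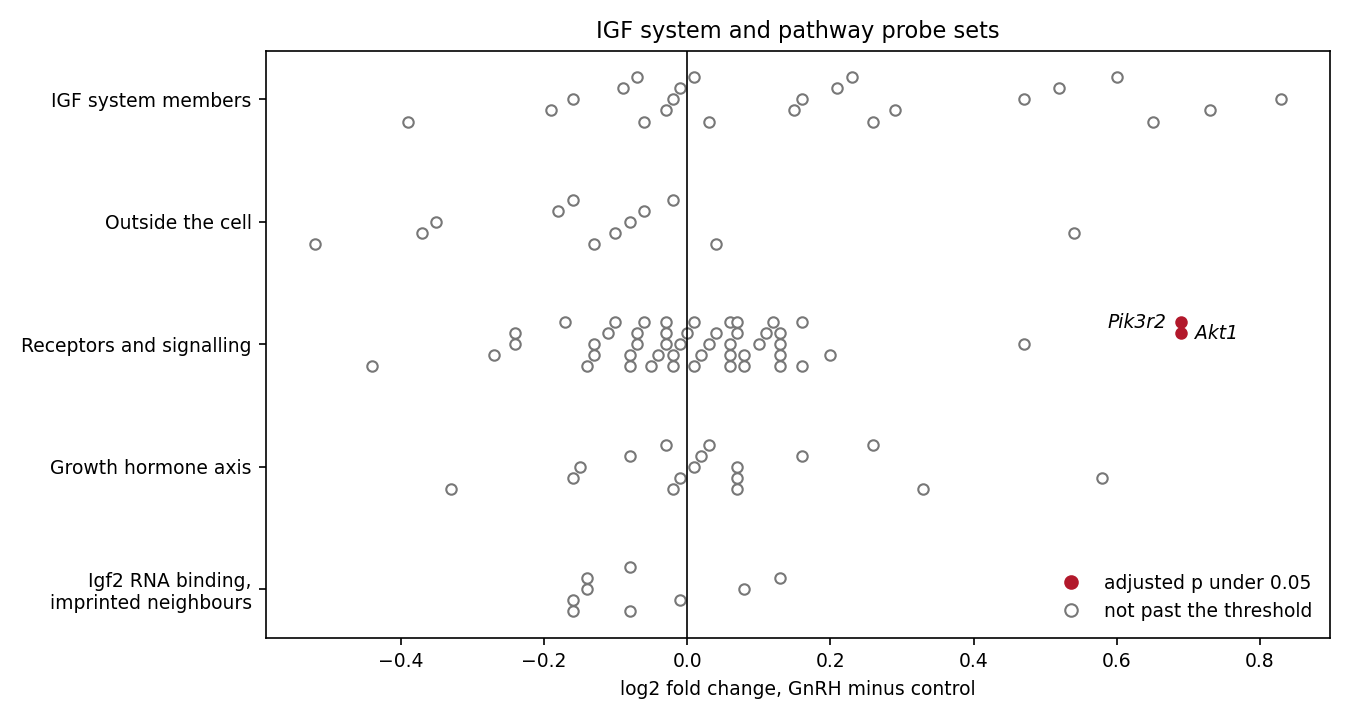
Log2 fold change (GnRH minus control) of the IGF system members and of the 4 further lists, 1 point per probe set, spread vertically within a list for visibility only. Red points passed an adjusted p of 0.05: 1 probe set each of Pik3r2 and Akt1, both at 0.69.

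The genes whose array-to-array pattern was most like that of Igfbp5 were found by the root mean square difference of log2 values over the 6 arrays, after each probe set's own mean was subtracted. The pattern used was that of 1396152_s_at, the member probe set with the widest range (1.39). Among 20825 other probe sets with 1 gene, the nearest was the Igfbp5 probe set of the same source sequence, at 0.0947. The nearest other genes were Aplp1, an amyloid precursor-like protein (0.119), Gaa, the lysosomal alpha-glucosidase (0.123), Sez6l2, a membrane protein of neural and endocrine cells (0.125), Dapk3, a cell death-associated kinase (0.128), and Anks1a, a cytoplasmic adaptor of receptor signalling (0.144). Aplp1, for example, had 8.70, 9.06 and 8.85 in GnRH arrays and 8.0, 7.96 and 7.65 in controls, with GnRH 2 highest and control 3 lowest as on 1396152_s_at. The remaining Igfbp5 probe sets, 1387347_at, 1370960_at and 1387348_at, ranked only 49, 52 and 1751, so the nearest genes share the pattern of 1396152_s_at rather than of every Igfbp5 probe set. The Igfbp3 probe sets ranked 113 and 260 and Igfbp2 ranked 20703, near the far end.

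Levels of cell type markers also differed between arrays, and their part in the results for the IGF genes was not tested. Summed linear intensity of 10 fibroblast and pericyte markers was 1151 to 1497 in GnRH arrays and 1235 to 1590 in controls, with 1 gene of the list (Col1a2) above all controls and 3 (Dcn, Lum and Postn) below, each on its brightest probe set. Over all probe sets, 7.06% lay above all controls and 9.62% below. The 6 measured folliculostellate and stem-like markers summed to 1184 to 1480 in GnRH arrays and 1546 to 2028 in controls. The list was not lower as a whole. Of its 10 probe sets 4 had a positive difference, S100b among them (0.15), and 6 a negative one, with a median of -0.014. Gfap, a marker of glial cells, had the largest difference, at -1.97, and was 1 of 2 genes of that list below all controls. Its log2 intensities were 7.69, 6.47 and 5.76 in GnRH arrays and 7.92, 8.97 and 8.94 in controls (limma adjusted p = 0.0835). Without control 3 it passed as lower, at -1.8 ± 0.45 (limma adjusted p = 0.0367). The 6 endothelial markers summed to 782 to 904 in GnRH arrays and 703 to 784 in controls, and the 6 posterior lobe and glial markers to 620 to 795 in GnRH arrays and 772 to 796 in controls. Among hormone cells, the 5 gonadotrope markers summed to 14646 to 18129 in GnRH arrays and 12965 to 16579 in controls. Of their 8 probe sets 3 rose, against 0.422% of all probe sets. Those 3 were both probe sets of Gnrhr, the GnRH receptor, at 1.12 ± 0.17 and 1.04 ± 0.14 (limma adjusted p = 0.0215 and 0.0129), and 1 of Nr5a1, a transcription factor of gonadotropes, at 0.54 ± 0.10 (limma adjusted p = 0.0471). The other 5 did not pass (limma adjusted p from 0.398 to 0.723). Both Fshb probe sets lay lower, at -0.30 and -0.36, while Lhb (0.34), Cga (0.18) and the other Nr5a1 probe set (0.39) lay higher. Without control 3, Lhb passed at 0.53 ± 0.11 (limma adjusted p = 0.0192). The 3 lactotrope markers summed to 18726 to 19446 in GnRH arrays and 14814 to 18506 in controls, without overlap, and the dopamine receptor Drd2 rose by 0.56 ± 0.10 (limma adjusted p = 0.0399). That sum follows mostly Prl, by far the brightest gene of the list. Prl differed by 0.24 with all arrays (limma adjusted p = 0.387) and by 0.33 without control 3 (limma adjusted p = 0.0374). The 4 somatotrope markers summed to 18046 to 19033 in GnRH arrays and 19287 to 20063 in controls, again without overlap. That sum follows mostly Gh1, by far the brightest gene of the list, which differed by only -0.08 (limma adjusted p = 0.729). With limma, 0 of the 6 somatotrope probe sets passed. At an unadjusted p under 0.05, 2 lay higher (both of Pou1f1) and 1 lower (Rbp4), where 6.6% and 5.66% of all probe sets did. GnRH 3, the array with low Igfbp2, was also the lowest array for Gfap, for Pomc (6.09, against 7.47 to 8.47 in controls) and for Avp (6.03, against 6.89 to 7.34 in controls). GnRH 3 was the lowest array for further genes of these lists too, among them Pcsk2, Tbx19, Oxt, Lum and Dcn. It was not the lowest for others, such as S100b and Nefl, and a link to Igfbp2 was not tested.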

How the data were processed

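Transcript levels were measured on 1-colour arrays, 1 per sample, in 6 samples. According to the labels, RNA was isolated with Trizol and a column, and biotin-labelled cRNA was hybridised. The deposited values are intensities on a linear scale, made by the authors with RMA per the submitters' processing notes. Its software, version and filters are unknown here. RMA usually evens out distributions between arrays, so a shift shared by all transcripts would not show. With no detection calls, absence could not be judged.

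Genes were named from the array annotation, updated by gene identifier against GRCr8, which served only for names, neighbours and promoters. Of the probe sets, 20826 had 1 symbol, 436 several and 9780 none. Intensities were turned into log2 without a pseudocount and tested with limma 3.58.1 in R 4.3.3 (two-sided, no covariate, all 31042 probe sets), checked on simulated data. Log2 fold changes are GnRH minus control. Alternatives were other scalings, filters, variance models and array weights, a block for the replicate number, and each array left out.

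All members were described. In each other list, genes past the threshold were named, or else the 3 with the smallest p-values. The genes nearest in pattern were also set by rule. The markers named, and the genes whose promoters are shown, were chosen after their values were seen. The members, lists and the division by Xist were chosen with earlier results of these data known.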

Additional observations from a re-analysis of the deposited data

How the results depend on the processing

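Counts of probe sets past the threshold moved with the setting. Over all probe sets the count was 144, against 90 with quantile normalization repeated, 93 with cyclic loess, 74 with log2(value + 16), 3020 with array weights, 265 with control 3 as the only control, 341 at an adjusted p under 0.10, 3808 at an unadjusted p under 0.05, and 20 to 2309 with 1 array left out. For IGF members it was 0, against 6 with array weights, 2 with control 3 as the only control, 1 at an adjusted p under 0.10, 8 at an unadjusted p under 0.05, and 0 to 4 with 1 array left out. For the pathway lists it was 2, against 1 with quantile normalization or cyclic loess, 0 with log2(value + 16), 12 with array weights, and 0 to 10 with 1 array left out. With the replicate block the counts were 215 over all probe sets, 0 for members and 2 for the pathway lists. Deviations of samples that share a number correlated at 0.16, -0.05 and 0.16, so the numbers are not known to pair the samples.

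Of 405 fits of single member probe sets under an alternative, 365 kept their direction and stayed short of the threshold, 13 kept it and passed, and 27 changed sign without passing. Some of these outcomes were fixed in advance. The exact permutation test reuses the main difference and cannot pass the threshold. Leaving out dim probe sets, other variance models and the replicate block keep the same difference, so its sign cannot change. With control 3 as the only control Igf2 gave 0.026 (1367571_a_at), 0.028 (1371206_a_at) and 0.054 (1398322_at), Igf1r -0.26 and -0.16, and Igfbp6 0.13 (1387625_at). With 1 array left out, Igf2 gave -0.073 to 0.024 (1371206_a_at), -0.079 to 0.026 (1398322_at) and -0.09 to 0.1 (1388252_at), Igf2r -0.039 to 0.029 (1367636_at), Igfbp4 -0.12 to 0.14 and Igfbp5 -0.0094 to 0.51 (1387348_at, lowest without control 3). With array weights Igf2 gave -0.055 (1388252_at), Igf2r 0.015 and Igfbp4 -0.022. Median centring gave Igf2r 0.012, quantile normalization Igfbp4 -0.044, cyclic loess Igf2 0.0041 and Igfbp4 -0.012, and the mean of all probe sets Igf2 -0.047. The cause was not tested. With 3 arrays a group, the exact permutation test cannot go below p = 0.1, and the number of arrays limits the precision of every value.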
